A study of Homo sapiens with 4 samples.

Results

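The genes described here are 10 oncofetal genes of hepatocellular carcinoma, a class known for activity in fetal liver and in liver tumours. They are AFP, GPC3, IGF2, H19, DLK1, IGF2BP1, IGF2BP3, LIN28B, PEG10 and EPCAM. The members were taken by name from the array annotation, with every probe other than controls whose gene name was on the list, which gave 13 of the 42405 probes and 10 of the 34809 gene names on the array. None of the 13 probes fell short of the well-above-background mark on any of the 4 arrays, and GPC3, IGF2 and DLK1 had 2 probes each. Expression was measured with 1-colour Agilent arrays in Hep3B, an established human hepatocellular carcinoma cell line that lacks RB and P53 and carries hepatitis B virus sequence, in order to find what follows a knockdown of UNC50, which encodes a membrane protein of the Golgi apparatus. The control cells were transfected with the hairpin plasmid shR-MOCK (1 array), and the knockdown cells with shR-467, shR-554 or shR-749 (1 array each), hairpin plasmids aimed at nucleotide 467, 554 or 749 of the UNC50 transcript. All cells had the same plasmid backbone and were selected with 1 µg/ml puromycin. The 3 hairpins are different reagents, so the SD given below is the spread between hairpins (n = 3), and with 1 mock array the spread between control cultures is not known. In these bulk extracts, fewer cells of a type and less RNA per cell cannot be told apart.

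Oncofetal genes belong to several kinds of machinery. AFP encodes alpha-fetoprotein, the main plasma protein of the fetus and a serum marker of liver cancer, and lies beside its relative ALB. LIN28B is an RNA-binding protein that blocks the maturation of let-7 microRNAs, and IGF2BP1 and IGF2BP3 bind and stabilise messenger RNAs, IGF2 among them. IGF2 is a fetal growth factor, H19 its imprinted non-coding neighbour, DLK1 an imprinted membrane protein related to the Notch ligands and PEG10 an imprinted gene derived from a retrotransposon. GPC3, a glypican, and EPCAM, an adhesion molecule, are cell-surface proteins used to recognise tumour cells and liver progenitors.

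Of the array spots other than controls, between 67.6% and 73.6% were well above background and none was saturated. Signals are given as multiples of the 75th percentile of the same array, and a difference is the log2 of a hairpin's multiple over that of the mock array for the same probe. UNC50 itself, read by 1 spot, stood at 4.47 times the percentile in mock cells, 1.07 under shR-467, 0.614 under shR-554 and 0.838 under shR-749. UNC50 was thus at 24.0%, 13.7% and 18.7% of its mock level. The median size of the difference over the 21487 genes well above background on all arrays was 0.20 to 0.21 on the log2 scale for each hairpin. The scanner software puts its own error at 10% of the signal for a spot of every member except PEG10, which comes to 0.14 on the log2 scale for a difference between arrays of a probe with 2 spots and 0.20 for a probe with 1 spot.

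**Figure D1:**
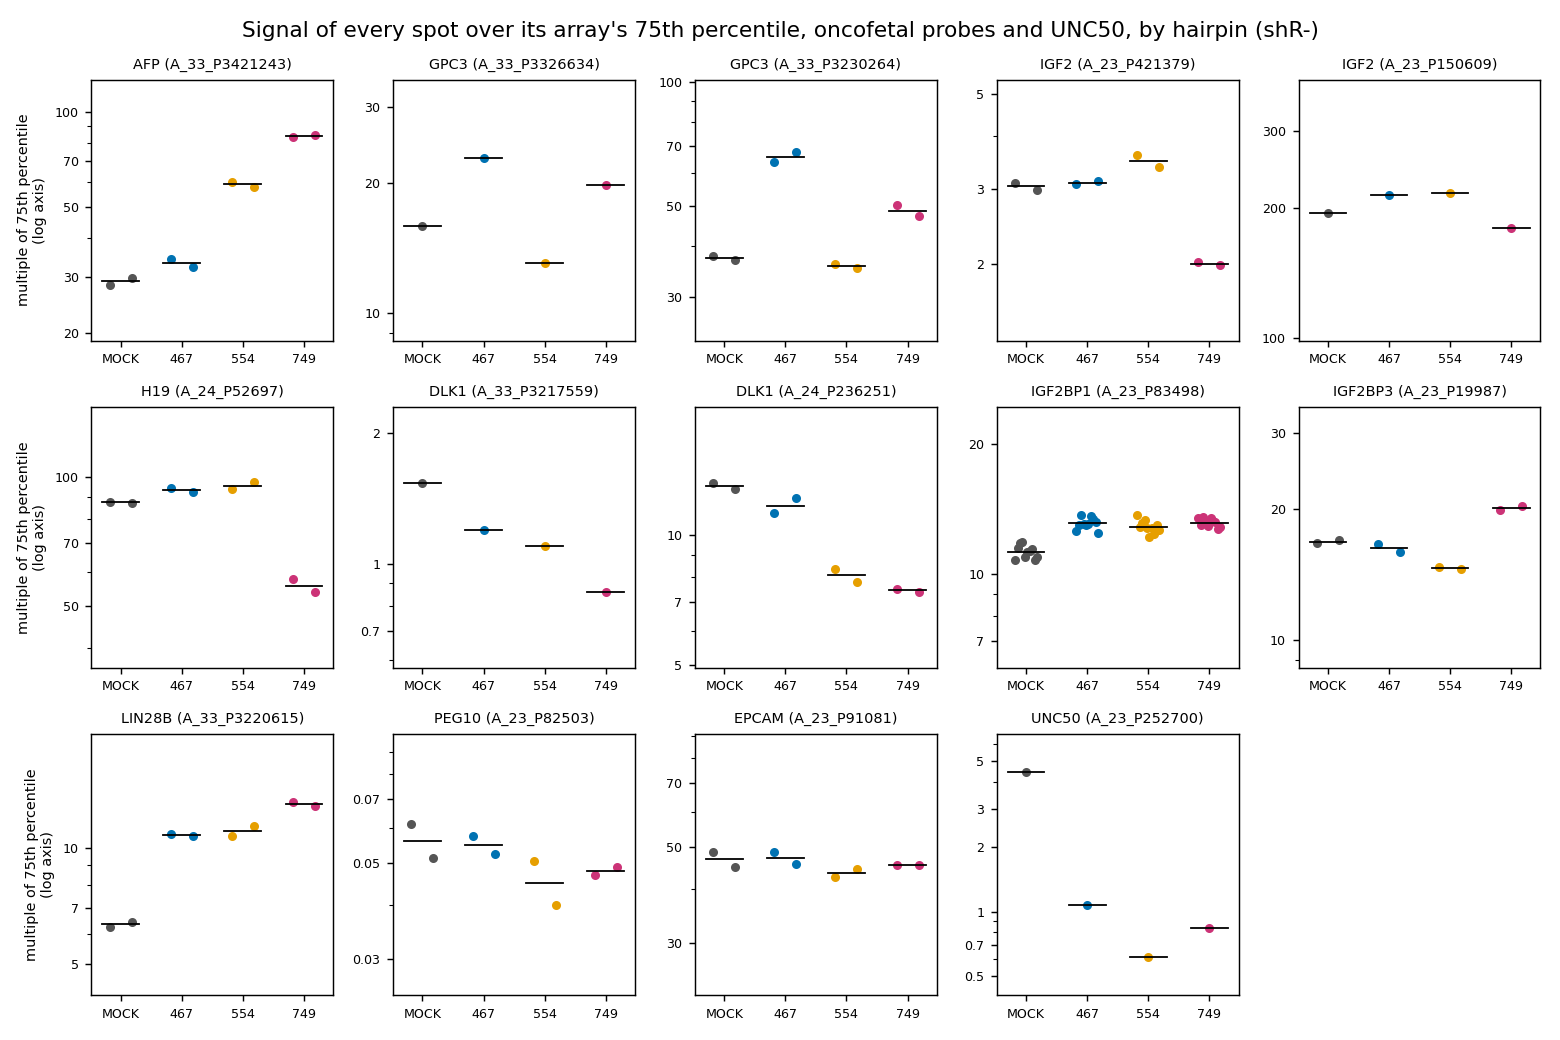
Signal of every spot of the 13 oncofetal probes and of UNC50 on the 4 arrays, as a multiple of the array's 75th percentile on a log axis whose range differs between panels, with the geometric mean as a line. LIN28B was higher on the 3 knockdown arrays than on the mock array, AFP stood apart from mock with shR-554 and shR-749, and EPCAM lay at 43.4 to 47.1 on all 4 arrays.

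The 2 members that differed most from mock were AFP and LIN28B, and both were higher in the knockdown cells. On the mean of the 3 hairpins, AFP was 1.88-fold and LIN28B 1.82-fold higher, while none of the 10 members was lower by 1.5-fold, the threshold used for these arrays. Of all 25148 genes tested, 2.28% passed 1.5-fold higher on this mean and 7.69% passed lower, and of the 21487 genes that all arrays measured well above background 2.34% and 2.92%. LIN28B was the 1 member past 1.5-fold with every hairpin, where 0.537% of all genes tested were higher in this way and 1.23% lower, and 0.568% and 0.475% of those 21487. The mock array was the lowest of the 4 for AFP, IGF2BP1 and LIN28B and the highest for DLK1 and PEG10, against 20.2% and 18.4% of these 21487 genes. The other 5 members lay on both sides of mock.

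By single hairpin the picture differed. GPC3 and LIN28B were past 1.5-fold higher with shR-467 (6.25% of genes) and no member was lower (4.32% of genes). With shR-554, AFP and LIN28B were past it higher (4.49% of genes) and DLK1 lower (8.34% of genes). With shR-749, AFP and LIN28B were again past it higher (5.29% of genes), and H19 and DLK1 lower (6.33% of genes). The median difference of the 10 members was 0.12 under shR-467, 0.03 under shR-554 and 0.09 under shR-749, so the genes did not shift as one block.

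**Figure D2:**
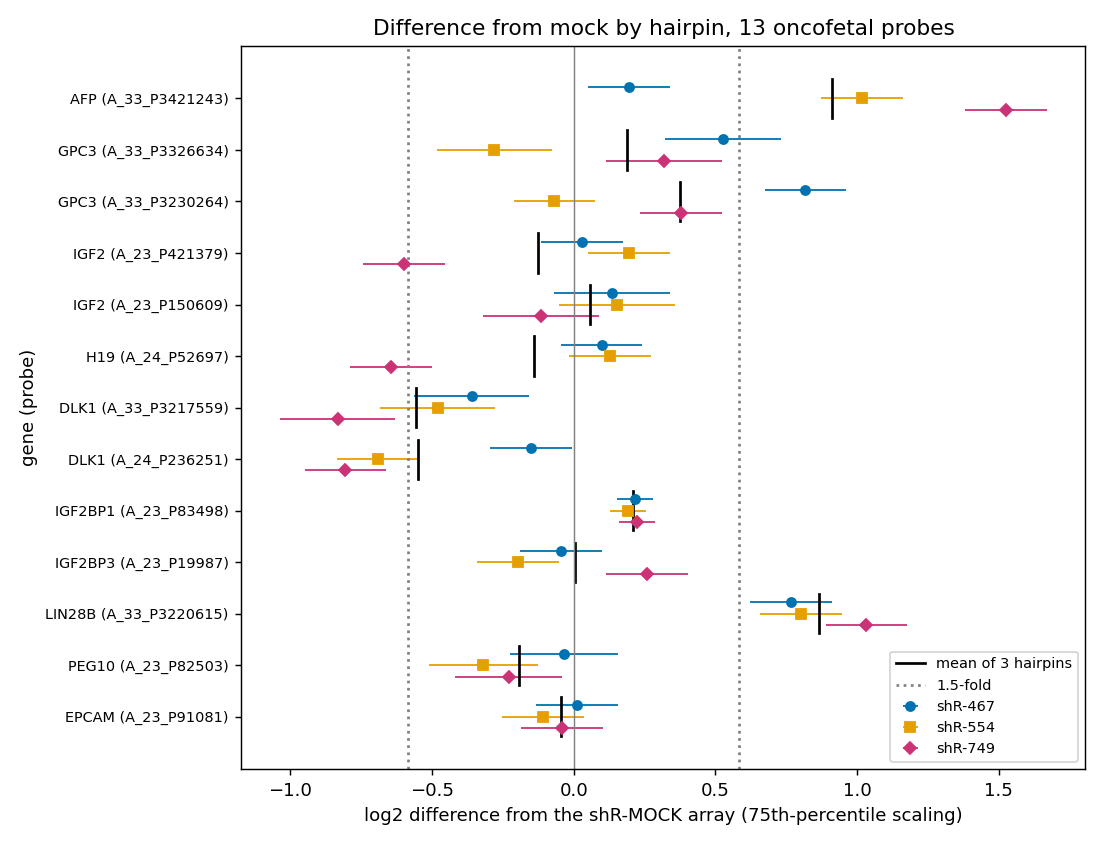
Log2 difference of each hairpin array from the mock array for the 13 oncofetal probes, with the scanner software's error as a bar, the mean of the 3 hairpins as a black line and 1.5-fold as dotted lines. The LIN28B points lie together between 0.77 and 1.03, whereas those of AFP spread from 0.20 to 1.53.

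AFP was read by A_33_P3421243, a probe in 2 spots at chr4:74321349-74321408 of hg19, on the plus strand and starting at base 1888 of the transcript. The first 30 bases of this probe and of the LIN28B probe are shown, since these carry the members that differed most:
AFP probe, first 30 bases: ggaagagaagacaaaacgagtctttcattc
LIN28B probe, first 30 bases: agcactgtttgcctttctgtacactctggg
AFP stood at 29.1 times the 75th percentile in mock cells, 33.3 under shR-467, 58.9 under shR-554 and 83.8 under shR-749. The shR-467 array was close to mock, and the other hairpin arrays were far above both. The differences were 0.20, 1.02 and 1.53 on the log2 scale, a mean of 0.91 ± 0.67 (SD, n = 3 hairpins). AFP was 1.33 higher on the log2 scale with shR-749 than with shR-467, and 5.42% of genes had a larger SD between hairpins. Without shR-749 the mean difference was 0.61 and without shR-467 it was 1.27.

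Around AFP, the other 3 genes of the albumin family showed no 1.5-fold difference on average. ALB, the adult counterpart of AFP and its neighbour on chromosome 4, stood at 218 times the percentile in mock cells, 270 under shR-467, 248 under shR-554 and 262 under shR-749. Its differences of 0.31, 0.18 and 0.27 were alike for the 3 hairpins, with a mean of 0.25 ± 0.06, unlike those of AFP. AFM, which encodes the vitamin E carrier afamin, was dim, at 0.0270, 0.0766, 0.0269 and 0.0223 times the percentile in mock cells and under shR-467, shR-554 and shR-749 in turn. It was highest with shR-467. On the array where it was nearest to the lowest signal called well above background, AFM was only 1.01 times that signal. Its order over the arrays is therefore not set against that of AFP.

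The 250 bases before the start of AFP and of ALB are printed from the RefSeq promoter table (GRCh38.p14, plus strand), with 2 motifs searched on both strands in capitals. GTTAAT is the core bound by hepatocyte nuclear factor 1, a liver factor known to act on both genes, and TATAAA is the TATA box:
AFP, chr4:73435971-73436220: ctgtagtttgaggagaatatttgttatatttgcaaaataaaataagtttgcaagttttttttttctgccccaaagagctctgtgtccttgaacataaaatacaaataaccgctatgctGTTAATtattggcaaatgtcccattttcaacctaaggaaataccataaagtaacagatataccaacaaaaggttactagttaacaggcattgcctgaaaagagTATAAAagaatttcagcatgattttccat
ALB, chr4:73404037-73404286: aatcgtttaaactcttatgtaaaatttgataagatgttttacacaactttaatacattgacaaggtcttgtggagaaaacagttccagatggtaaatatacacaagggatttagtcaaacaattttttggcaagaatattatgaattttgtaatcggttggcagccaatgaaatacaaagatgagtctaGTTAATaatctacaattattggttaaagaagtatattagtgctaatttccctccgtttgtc
GTTAAT begins 132 bases before the start of AFP and 61 bases before that of ALB, and is found in 6.23% of 35116 such windows. TATAAA begins 29 bases before the start of AFP, is found in 10.72% of the windows, and its letters are not in the window of ALB. The table had an entry for 4 of the 10 members. Both motifs are descriptions of the sequence, and binding was not measured.

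Of 21 listed regulators of AFP, 20 were well above background on all arrays, and none was past 1.5-fold with every hairpin. Their mean differences ran from -0.61 to 0.46 with a median of -0.02, against a median of 0.00 over the 21487 genes. GATA6, a liver transcription factor, was the 1 regulator past 1.5-fold on average, at -0.68, -1.13 and -0.03 under shR-467, shR-554 and shR-749. It was named after its values were seen.

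Of 11 hepatocyte markers, 11 were well above background on all arrays, and their summed level was 488 times the percentile in mock cells, 701 under shR-467, 580 under shR-554 and 615 under shR-749. The sum was thus highest with shR-467, but it weighs the brightest genes most and does not speak for each marker. ALB alone stood at 218 in mock cells, 270 under shR-467, 248 under shR-554 and 262 under shR-749. On average 5 of the 11 were past 1.5-fold higher, 4 of them with every hairpin, and none was lower. FGB, the beta chain of fibrinogen, differed by 0.65, 1.94 and 2.67, and FGA, the alpha chain, by 0.68, 1.48 and 2.39. For FGA and FGB, as for AFP, the difference was smallest with shR-467 and largest with shR-749. The same held for FGG, the gamma chain, at 0.52, 1.09 and 2.46, named after its values were seen. Some other markers instead fell from shR-467 to shR-554 to shR-749. SERPINA1, the protease inhibitor alpha-1-antitrypsin, differed by 0.65, 0.03 and -0.20, the iron carrier TF by 0.56, 0.20 and -0.02, and AHSG, a plasma protein of fetal liver, by 0.59, 0.24 and 0.05. These 3 were named after their values were seen. APOA1, the main protein of high-density lipoprotein, differed by 1.35, 0.60 and 1.06, and TTR, the thyroxine carrier transthyretin, by 0.64, 0.65 and 1.15. TTR was thus highest with shR-749, as AFP was. The part of the hepatocyte genes in the AFP result was not tested.

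LIN28B was read by A_33_P3220615, a probe in 2 spots at chr6:105531071-105531130 of hg19, on the plus strand and starting at base 5368 of the transcript. It stood at 6.33 times the 75th percentile in mock cells, 10.8 under shR-467, 11.0 under shR-554 and 13.0 under shR-749. The mock array was the lowest of the 4, as it was for 20.2% of the 21487 genes. The shR-467 and shR-554 arrays were alike. The differences were 0.77, 0.80 and 1.03, a mean of 0.87 ± 0.14, so that LIN28B stood at 170%, 174% and 205% of its mock level. The SD of 0.14 lay below the median SD of 0.22 over the 21487 genes. By limma the unadjusted p of LIN28B was 0.00234, and 40 genes had a smaller one. After Benjamini-Hochberg adjustment over 25148 genes the limma adjusted p was 0.9998, so that LIN28B did not pass the test.

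Its paralog LIN28A, listed on the array as LIN28, reached the well-above-background mark on no array and is given no fold. Of 39 names listed for the LIN28 and let-7 pathway, 32 were on the array and 29 well above background on all arrays. Of these 29, 3 were past 1.5-fold higher with every hairpin, LIN28B included, and 0 were lower. The median of the mean differences of the list was -0.06, so the list did not shift with its 3 highest genes.

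ZCCHC11, a uridylyltransferase that tags let-7 precursors for decay, was the highest of the 29. It stood at 0.614 times the percentile on the mock array and at 1.40, 1.63 and 1.84 under shR-467, shR-554 and shR-749, read by 1 spot at chr1:52889164-52889223 of hg19. Its differences were 1.19, 1.40 and 1.58, a mean of 1.39 ± 0.20, with a limma adjusted p of 0.754. E2F5, a repressive E2F factor and reported let-7 target, stood at 0.558 on the mock array and at 0.922, 0.859 and 0.897 with the hairpins. The mean difference of E2F5 was 0.68 ± 0.05, and the limma adjusted p was 0.9998. HMGA2, the classic let-7 target, differed by -0.31, -0.13 and -0.27 on its brightest probe. The other HMGA2 probes had mean differences of -0.16 and 0.03. MYC, which represses let-7 genes, differed by -0.42, -0.11 and -0.05. Mature let-7 was not measured on these arrays.

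IGF2BP1 was the member with the least spread between hairpins. Its probe A_23_P83498 lies at chr17:47132379-47132438 of hg19, on the plus strand, and is printed in 10 spots, which lowers the software's error of a difference to 0.06. It stood at 11.3 times the percentile in mock cells, 13.1 under shR-467, 12.9 under shR-554 and 13.2 under shR-749. The knockdown arrays were alike and above mock. The differences were 0.22, 0.19 and 0.22, a mean of 0.21 ± 0.02, and 99.4% of genes had a larger SD. This difference is 1.16-fold, below the threshold, and 37.3% of genes had a mean difference of larger size.

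IGF2BP3, read by A_23_P19987 at chr7:23350769-23350828 on the minus strand, stood at 16.8 in mock cells, 16.3 under shR-467, 14.7 under shR-554 and 20.1 under shR-749. It lay below mock with shR-467 and shR-554 and above it with shR-749. Its mean difference was 0.01 ± 0.23. IGF2BP2, the paralog kept in adult tissue, was at 2.47, 2.56, 2.43 and 2.59 in mock cells and under shR-467, shR-554 and shR-749 in turn by its probe at chr3:185362047-185362106. A further probe named IGF2BP2 is placed on chromosome 12 by the array annotation and differed by 0.06, 0.33 and 0.09. Of 15 messenger RNAs and partners of these proteins well above background, the member IGF2 included, none was past 1.5-fold on average in either direction. Their mean differences ran from -0.31 to 0.06, the highest being that of IGF2, with a median of -0.10.

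IGF2 and H19 lie side by side on chromosome 11, and their mapped probes are 134 kb apart on hg19, both on the minus strand. H19 and both IGF2 probes had the same order of arrays. Shown are the 60-base probes of H19 and the IGF2 probe without a genome position in the annotation, the farthest below mock with shR-749:
H19 probe A_24_P52697, chr11:2016674-2016733: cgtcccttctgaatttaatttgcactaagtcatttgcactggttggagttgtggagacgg
IGF2 probe A_23_P421379, from base 1050 of the transcript: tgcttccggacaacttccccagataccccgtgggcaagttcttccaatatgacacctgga
H19 stood at 87.2 times the percentile in mock cells, 93.4 under shR-467, 95.3 under shR-554 and 55.8 under shR-749. It was low on the shR-749 array alone, at 64.0% of mock, and within 10% of mock on the other knockdown arrays. The differences were 0.10, 0.13 and -0.64, a mean of -0.14 ± 0.44 whose sign depends on shR-749, since without that array the mean was 0.11.

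By A_23_P421379, IGF2 stood at 3.04 in mock cells, 3.11 under shR-467, 3.49 under shR-554 and 2.01 under shR-749. It was also lowest with shR-749, at 66.0% of mock. The brighter probe A_23_P150609, further downstream at chr11:2150394-2150453 and from base 5058 of the transcript, stood at 195, 214, 217 and 180 in mock cells and under shR-467, shR-554 and shR-749 in turn. With shR-749 the difference was -0.60 on the first and -0.12 on the second, a gap of 0.48 that exceeds the software's error for either probe. With shR-467 the 2 probes were 0.10 apart and with shR-554 0.04. The mean difference of IGF2 was 0.06 ± 0.15 by the brighter probe and -0.12 ± 0.42 by the other.

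None of the 18 measured genes of the IGF2 and H19 locus and of the IGF receptors was past 1.5-fold on average. IGF1R, the signalling receptor of IGF2, differed by -0.30, 0.24 and 0.03, and IGF2R, the receptor that clears IGF2, by -0.20, -0.01 and -0.08. Their mean differences were -0.01 ± 0.27 and -0.10 ± 0.09.

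DLK1 was the lowest of the members. Both of its probes are shown, as they lie 402 bases apart on chromosome 14 and are separate readings of this gene:
DLK1 probe A_24_P236251, chr14:101201048-101201107: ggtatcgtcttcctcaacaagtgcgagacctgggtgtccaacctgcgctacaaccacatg
DLK1 probe A_33_P3217559, chr14:101200586-101200645: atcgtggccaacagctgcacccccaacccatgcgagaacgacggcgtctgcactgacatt
The brighter probe A_24_P236251 stood at 13.0 times the percentile in mock cells, 11.7 under shR-467, 8.05 under shR-554 and 7.43 under shR-749. The dimmer probe gave 1.54, 1.20, 1.101 and 0.862. By both probes every knockdown array was below mock and shR-749 was the lowest. The differences of the brighter probe were -0.15, -0.69 and -0.81, a mean of -0.55 ± 0.35, and those of the dimmer were -0.36, -0.48 and -0.83, a mean of -0.56 ± 0.25. The mean lay just short of 1.5-fold, at 1.46-fold and 1.47-fold lower. Without shR-467 the mean of the brighter probe was -0.75, and by this probe DLK1 was past 1.5-fold with both remaining hairpins. By the dimmer probe the difference with shR-554, -0.48, was short of 1.5-fold and that with shR-749, -0.83, was past it.

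MEG3, the non-coding RNA expressed from the other parental copy of the DLK1 locus, had 3 probes that differed among themselves. Their mean differences were 0.18, -0.33 and -0.35, so no direction is given for MEG3. DLK2, the paralog of DLK1, differed by 0.47, -0.12 and 0.57. Among 11 Notch and delta-like genes well above background, DLK1 included, none was past 1.5-fold with every hairpin, 2 were past it lower on average, and the median was -0.19. These were HEY1, a Notch target, at -0.79 ± 0.55, and the receptor NOTCH3 at -0.68 ± 0.29, both named after their values were seen.

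PEG10 was by far the dimmest member, only 2.10 times the lowest signal called well above background on the array where it was nearest to it. Its probe A_23_P82503, at chr7:94298564-94298623, stood at 0.0561 times the percentile in mock cells, 0.0548 under shR-467, 0.0449 under shR-554 and 0.0478 under shR-749. The SD between its 2 spots of 1 array reached 0.24, as large as the mean difference of -0.19 ± 0.15. SGCE, the imprinted neighbour of PEG10, differed by 0.05, -0.03 and 0.02. In the wider list of imprinted genes, 30 were well above background on all arrays, none was past 1.5-fold with every hairpin, and the median of the mean differences was 0.02. CDKN1C, an imprinted inhibitor of the cell cycle named after its values were seen, was the 1 imprinted gene past it on average, at -0.15, -1.37 and -0.81.

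GPC3 was highest with shR-467, unlike AFP and LIN28B. One probe, A_33_P3326634, is shown as the reading upstream of the brighter probe, which lies 60.6 kb away on the minus strand of chromosome X:
GPC3 probe A_33_P3326634, chrX:132730476-132730535: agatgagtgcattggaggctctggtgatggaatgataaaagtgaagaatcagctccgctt
By the brighter probe A_33_P3230264, GPC3 stood at 37.4 times the percentile in mock cells, 65.9 under shR-467, 35.6 under shR-554 and 48.6 under shR-749. By the other probe it stood at 15.9, 22.9, 13.1 and 19.8. Both probes put the arrays in the same order, with shR-467 highest and shR-554 below mock. The differences were 0.82, -0.07 and 0.38 by the brighter probe, a mean of 0.38 ± 0.44, and 0.53, -0.28 and 0.32 by the other, a mean of 0.19 ± 0.42. Without shR-554 the mean of the brighter probe was 0.60, past 1.5-fold. By the other probe the remaining differences, 0.53 and 0.32, were each short of 1.5-fold.

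Among the other glypicans, GPC1 differed by 0.02, 0.68 and 0.21, with shR-554 the highest, and GPC4, the neighbour of GPC3 on chromosome X, by -0.31, -0.54 and -0.26. GPC6 differed by 0.26, 0.23 and -0.24 by its brighter probe, highest with shR-467 as was GPC3. Of 17 glypicans and heparan sulfate enzymes well above background, none was past 1.5-fold on average, and GPC3 had the highest mean difference of the list.

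EPCAM differed little between the arrays. Its probe A_23_P91081, at chr2:47613894-47613953 on the plus strand, stood at 46.7 times the percentile in mock cells, 47.1 under shR-467, 43.4 under shR-554 and 45.4 under shR-749. The 3 differences of 0.01, -0.11 and -0.04 were each within the software's error of 0.14, and 93.9% of genes had a larger SD between hairpins. Of 28 measured liver progenitor markers, EPCAM and DLK1 included, 1 was past 1.5-fold higher and 1 lower on average, and none with every hairpin. The lower one was TSPAN8, a membrane tetraspanin, at -0.49, -1.49 and -1.65. The higher one was a dim probe named NANOG, at 0.0194 times the percentile on the mock array, which the annotation places on chromosome 15. Both were named after their values were seen.

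**Figure D3:**
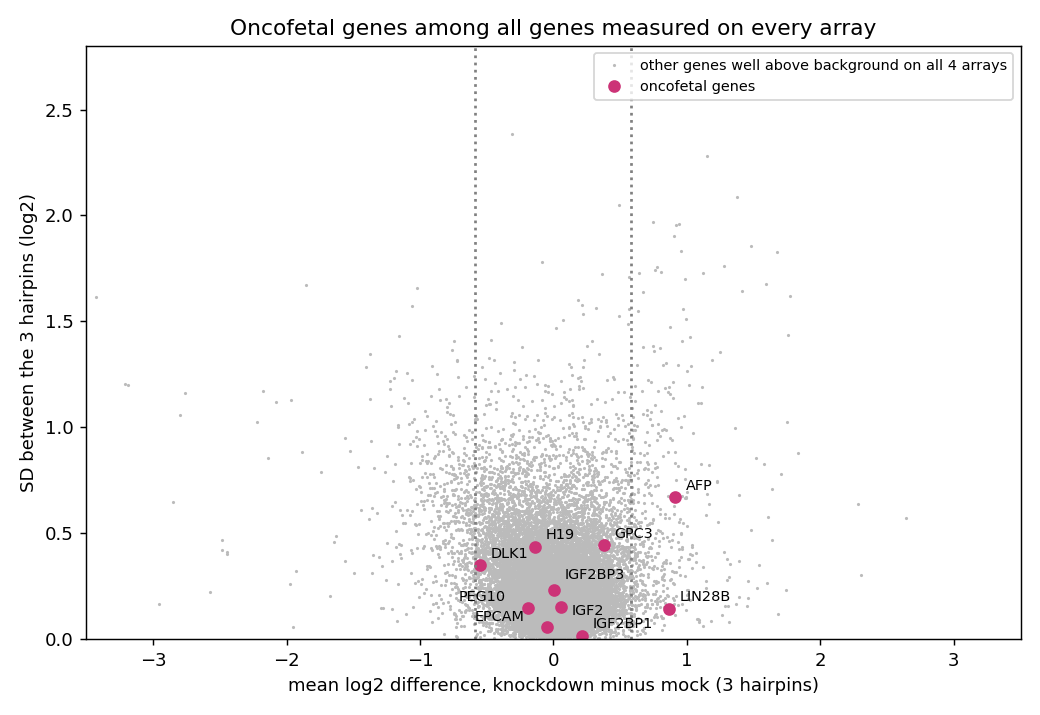
Mean log2 difference of the 3 hairpins from mock on the horizontal axis and the SD between hairpins on the vertical axis, for the 21487 genes well above background on all 4 arrays (grey) and the 10 oncofetal genes (red), with 1.5-fold as dotted lines. AFP and LIN28B are both past 1.5-fold, AFP with an SD of 0.67 and LIN28B with an SD of 0.14.

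Among the 21487 genes well above background on all arrays, 1.34% had a mean difference of larger size than AFP and 1.62% one of larger size than LIN28B. For DLK1 this share was 6.31% and for GPC3 15.1%. It was 79.8% for IGF2, 84.1% for EPCAM and 98.2% for IGF2BP3. The SD between hairpins had a median of 0.19 over the members and ran from 0.02 for IGF2BP1 to 0.67 for AFP, beside the median of 0.22 over all these genes.

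In the limma fit across 25148 genes, no member and no other gene passed an adjusted p of 0.05, and the smallest adjusted p was 0.612, for UNC50. At an unadjusted p under 0.05, 1 of the 10 members was called, LIN28B, and 381 genes in all (1.52%). The unadjusted limma p was 0.0758 for AFP and 0.0827 for DLK1. An exact permutation test of 3 arrays against 1 cannot go below p = 0.25, so no single value can pass 0.05 by it.

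**Figure D4:**
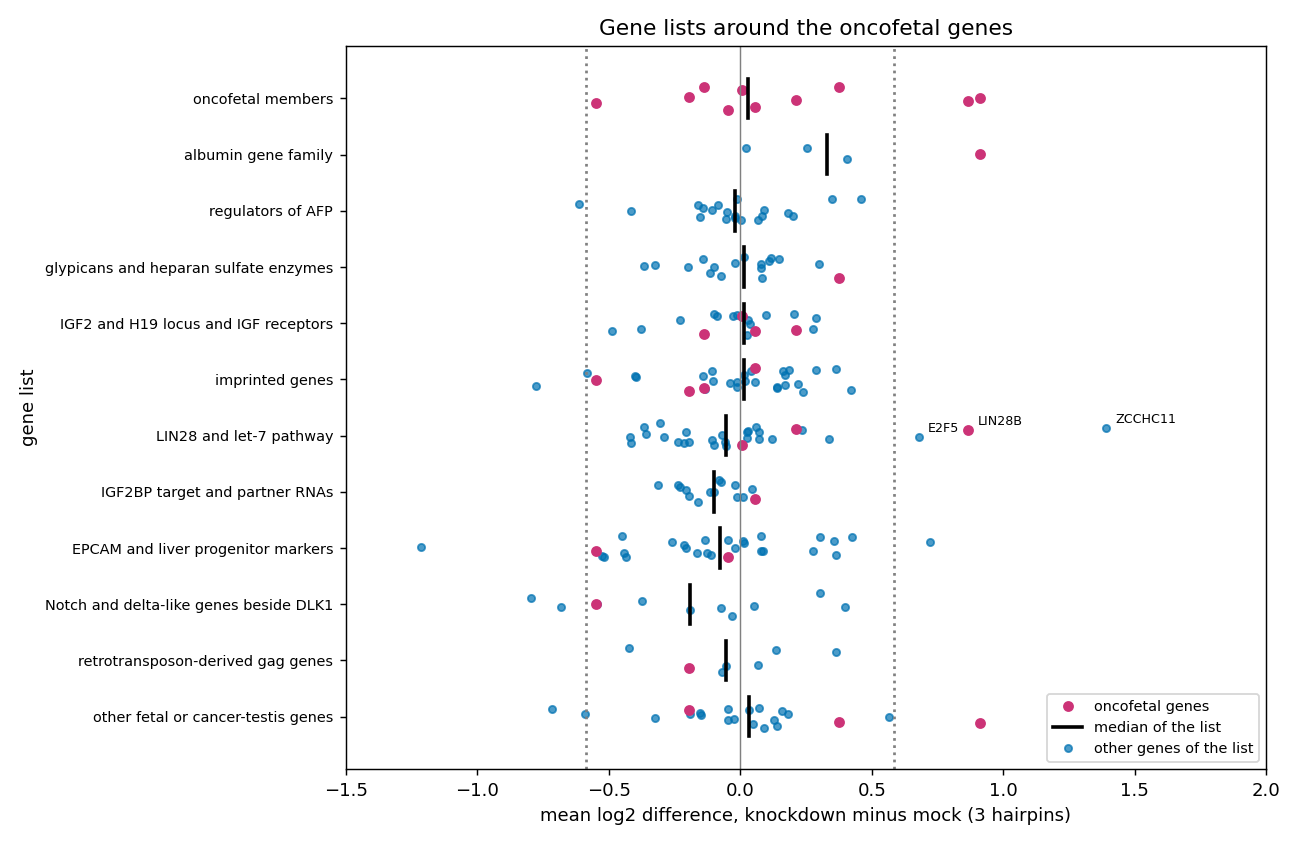
Mean log2 difference of the 3 hairpins from mock for each gene well above background on all 4 arrays, by gene list, with the oncofetal genes in red, the median of each list as a black line and 1.5-fold as dotted lines. Named points are the genes of the lists below the top row that were past 1.5-fold with every hairpin, here the member LIN28B with ZCCHC11 and E2F5, and the cell type markers are not drawn.

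Of 7 measured genes derived from retrotransposon gag sequences, PEG10 included, none was past 1.5-fold on average. The list of other fetal or cancer-testis genes had 21 measured genes, the members AFP, GPC3 and PEG10 among them, with a median of 0.03. AFP was the 1 gene of this list past 1.5-fold higher on average, so none of the genes that are not members was. SPP1, at -0.59 ± 1.40, and GOLM1, at -0.72 ± 0.66, were past it lower on average but not with every hairpin, and both were named after their values were seen. Markers of other cell types were also read. The 6 measured cholangiocyte markers summed to 28.7 times the percentile on the mock array and 16.9 to 30.8 on the knockdown arrays. Fibroblast or stellate markers summed to 0.169 on the mock array and 0.220 to 0.261 on the knockdown arrays, with COL1A1, COL3A1 and ACTA2 short of the well-above-background mark on each array. Endothelial markers summed to 0.225 and 0.247 to 0.351, with KDR short of that mark on each array, and leukocyte markers to 4.68 and 4.45 to 6.04. All arrays read the Hep3B line, so these sums are levels of marker transcripts in its cultures. The part of these transcripts in the members' differences was not tested.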

How the data were processed

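For each array the authors deposited the Agilent Feature Extraction 10.7.1.1 output, in which the processed signal is an intensity with the background already subtracted, and a table of processed log2 values whose normalization is not named. Here the log2 of each spot's intensity minus that of the array's 75th percentile was taken, dropping spots marked as outliers and averaging the rest by probe. A probe was kept if the mock array, or each of the 3 knockdown arrays, had it well above background. A gene was read from its brightest kept probe, and every probe of a member is reported.

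Differences from mock were counted at 1.5-fold, after the study's methods, and tested with limma 3.58.1 in R 4.3.3 (lmFit, eBayes with a trend, Benjamini-Hochberg adjustment, residual degrees of freedom 2, prior 4.98). The fit takes the spread of the mock culture to equal that of the hairpins, and the number of arrays limits the precision. The labels do not say whether cultures were separate beyond the hairpin. The members and lists were chosen with earlier results of these data known. Named genes were the members, UNC50, up to 4 genes of a list past 1.5-fold with every hairpin, and fixed paralogs, neighbours and partners; others are marked in the text. A gene of this rule is not reported here.

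Alternatives were quantile normalization, median scaling, normexp with an offset of 50, the authors' processed values, raised low signals, other filters, outlier spots kept, the mean over probes, a 2-fold threshold, the methods' t-test, limma without trend, 1 row per probe and each hairpin left out. Positions are those of the array annotation (hg19). Promoter windows are from RefSeq on GRCh38.p14. Python 3.11.15 was used, and steps were tested on simulated data. Protein sequences and exon positions of the probes were not analysed here.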

Additional observations from a re-analysis of the deposited data

How the results depend on the processing

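Under the 9 processing alternatives the mean difference of each of the 10 members moved by less than the SD between hairpins. Raised low signals, the other filters and kept outlier spots could not move any member. Each member probe was well above background on every array and had no spot marked as an outlier. The direction of AFP, LIN28B and DLK1 held under the 9 alternatives and with each hairpin left out. Leaving out each hairpin gave a mean log2 difference of 0.61 to 1.27 for AFP, 0.78 to 0.92 for LIN28B and -0.75 to -0.42 for DLK1. Members near 0 changed sign. Leaving out shR-749 turned H19 from -0.14 to 0.11 and IGF2BP3 from 0.01 to -0.12. IGF2 turned from 0.06 to -0.07 with quantile normalization, -0.06 with normexp, -0.06 in the authors' processed values and -0.03 as the mean over its probes, and with normexp IGF2BP3 lay just below 0. The cause was not tested. The count of members past 1.5-fold with every hairpin was 1 to 3 when a hairpin was left out. It was 3 without shR-467 (AFP, LIN28B and DLK1, the last by its brighter probe only) and 1 without either of the others. The shR-467 array was the one on which AFP (0.20) and DLK1 (-0.15) were nearest to mock. The count on the mean was 2 to 3, and GPC3, read by its brighter probe, was past 1.5-fold only without shR-554. With a hairpin left out, fewer arrays have to pass for any gene. The share of all genes past 1.5-fold was not counted there, so these counts are not set against it. At a 2-fold threshold 0 members passed on average and 0 with every hairpin. By limma no member passed an adjusted p of 0.05 under any alternative. Limma calls at an unadjusted p under 0.05 are not given for the fits with a hairpin left out, as each sets 2 arrays against the single mock array. The methods' t-test gave IGF2BP1 and LIN28B at this level, among 646 genes, and 0 after adjustment. Requiring a signal well above background on all arrays moved the genes lower by 1.5-fold on average from 1935 to 627 and with every hairpin from 309 to 102. The members' counts stayed at 0, as this filter could not remove any member. Without a filter on dim probes, 715 genes had an unadjusted limma p under 0.05, against 381. A block for slide or scan was not run, as all arrays shared 1 slide and 1 scan. PEG10 is limited by its low signal, and the single mock array limits every difference.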
